A study of Mus musculus with 8 samples.

Results

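The gelsolin and villin family comprises actin-binding proteins built from repeated gelsolin domains, and 8 of its genes, Vill, Vil1, Avil, Svil, Gsn, Capg, Scin and Flii, were followed in mouse lungs of stage E13.5 by sequencing of their RNA. The 8 genes were taken by symbol from the 55401 genes of the deposited count table. All 8 were present, 6 passed the low-count filter that left 15788 genes to test, and Vil1 and Scin did not pass it. Vill was chosen by its measured difference between mutant and control in these same counts, so its values are given as a description, with no test.

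The study compared 4 mutant libraries with 4 cre control libraries of lung. The mutants carried the transgene combination written Tbx4tetOcre and the Myrf allele written MyrfE6, and the controls are labelled only as cre control. The labels do not give the lesion in the allele, the cells in which the cre was active, how many embryos of which sex made up a library, or whether replicates came from separate litters, so the p-values measure the spread between these libraries only.

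Proteins of this family cut actin filaments, cap their fast-growing ends or tie them into bundles, and several are controlled by calcium and by membrane phosphoinositides. Villin is best known from the brush border of the gut and kidney, where it bundles the actin core of microvilli. Gelsolin is the severing and capping protein for which the family is named, and a headpiece domain at the end of villin and its closest relatives gives them a further contact with actin. Myrf encodes a membrane-bound transcription factor that is known from oligodendrocytes and is also made in mesothelium, the cell layer covering the lung.

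Library totals lay between 17819285 and 48679134 counts in mutant lung and between 17799899 and 19032389 counts in control lung. The lung epithelial factor gene Nkx2-1 measured 187.8 ± 7.92 CPM in mutant and 175.5 ± 12.3 CPM in control libraries (SD, n = 4 each; CPM is counts per M (mega) counts of the TMM-scaled library). The Myrf gene fell to 88.4 ± 4.17 CPM in mutant libraries, against 114 ± 5.64 CPM in control libraries (log2 fold change -0.37, SE 0.0440, edgeR quasi-likelihood test, adjusted p = 0.000211), a sum over all exons that does not show the allele itself. Sex-linked transcripts were not balanced between the groups. Mutant replicates 1 and 2 had Y-linked transcripts and almost no Xist, control replicates 2 and 3 had Xist and almost no Y-linked transcripts, and the other 4 libraries had both. In a principal component analysis, component 1 (26.7% of variance) put mutant replicate 4 at 4.12 and the other mutants from -23.9 to -12.5, and control replicate 4 at 4.96 and the other controls from 14.5 to 17.7.

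Vill, which encodes a villin-like protein with gelsolin domains and a headpiece and is among the less studied of the family, was higher in every mutant library. It measured 55.1, 42.5, 53.2 and 52.1 CPM in mutant replicates 1 to 4, against 32.2, 30.6, 33.6 and 29.8 CPM in control replicates 1 to 4. The groups did not overlap, and the lowest mutant library, replicate 2, was also the deepest of the study. The means were 50.7 ± 5.62 CPM in mutant and 31.6 ± 1.68 CPM in control libraries (SD, n = 4 each), a log2 fold change of 0.68 (SE 0.0758) or 1.6-fold. In bulk lung, fewer or more cells that make a transcript and a change of RNA per cell cannot be told apart.

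The difference rested on 925 to 2075 counts of Vill in each mutant library and 529 to 609 in each control library. Spread within a group was wider in mutant lung, with a coefficient of variation of 11.1% against 5.32% in control lung. In the 4 libraries in which Xist and Y-linked transcripts occurred together, Vill measured 53.2 and 52.1 CPM in mutants and 32.2 and 29.8 CPM in controls. The log2 fold change there was 0.77 (SE 0.0755), in a subset chosen after the data were seen. With the Y-linked level as a covariate in all 8 libraries it was 0.72 with a wider SE of 0.104, and without mutant replicate 4 it was 0.66 (SE 0.0835). The part of sex in the level of Vill was not tested. Among the 89 genes called higher in mutant lung, Vill ranked 15 by log2 fold change. Vill was chosen for that difference, so the rank is only a description of its size.

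**Figure D1:**
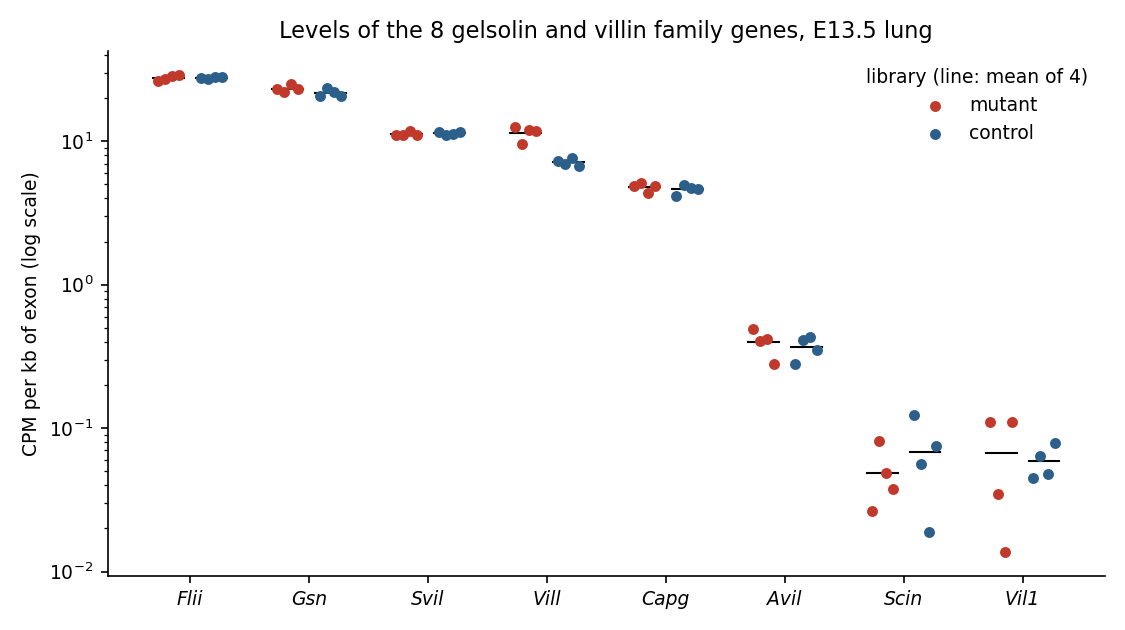
Level of each of the 8 family genes as CPM per kb of exon on a log axis, with 1 point per library, mutant libraries left of control libraries and a line at the mean of 4. The groups separate for Vill, at 9.64 to 12.5 in mutant and 6.77 to 7.62 in control libraries, and overlap for each of the other 7 genes.

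Vill (ENSMUSG00000038775.14) lies on chromosome 9 from 119052778 to 119071525 on the plus strand of GRCm38, with 19 merged exons and 4409 exon bases in the deposited table. None of its exon bases is shared with an exon of another gene on either strand. Next to it lies Plcd1, a phospholipase C gene on the minus strand, whose end is 1 base away from the end of Vill, so that the genes run towards each other. Counting used strand, and Plcd1 measured 19.0 ± 1.24 CPM in mutant and 17.6 ± 0.893 CPM in control libraries, which did not pass (log2 fold change 0.11, SE 0.0706, edgeR adjusted p = 0.543). Vill was 2.36 to 2.99 times the CPM of Plcd1 in mutant libraries and 1.65 to 2.0 times in control libraries.

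The start regions of Vill, Vil1 and Flii are shown because these genes span the family's range, with Vill the gene that differed, Vil1 its namesake near the detection floor and Flii the gene with the highest level. Each sequence runs from 250 bases before to 50 bases after a start listed in RefSeq (GRCm38.p6), 5′ to 3′ on the strand of the gene, with the dinucleotide CG in capitals.
Vill, chr9:119052528-119052827, plus strand: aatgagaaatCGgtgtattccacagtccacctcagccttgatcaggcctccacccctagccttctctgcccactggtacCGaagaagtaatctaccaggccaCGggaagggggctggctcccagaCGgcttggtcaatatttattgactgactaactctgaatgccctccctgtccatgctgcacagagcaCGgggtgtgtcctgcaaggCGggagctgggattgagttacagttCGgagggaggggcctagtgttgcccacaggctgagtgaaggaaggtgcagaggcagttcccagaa
Vil1, chr1:74409134-74409433, plus strand: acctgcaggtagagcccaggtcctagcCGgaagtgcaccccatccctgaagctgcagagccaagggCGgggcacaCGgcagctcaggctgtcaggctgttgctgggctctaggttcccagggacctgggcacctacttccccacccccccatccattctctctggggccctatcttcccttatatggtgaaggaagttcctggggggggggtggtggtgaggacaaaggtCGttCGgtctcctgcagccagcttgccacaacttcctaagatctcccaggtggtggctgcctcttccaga
Flii, chr11:60727214-60727513, minus strand: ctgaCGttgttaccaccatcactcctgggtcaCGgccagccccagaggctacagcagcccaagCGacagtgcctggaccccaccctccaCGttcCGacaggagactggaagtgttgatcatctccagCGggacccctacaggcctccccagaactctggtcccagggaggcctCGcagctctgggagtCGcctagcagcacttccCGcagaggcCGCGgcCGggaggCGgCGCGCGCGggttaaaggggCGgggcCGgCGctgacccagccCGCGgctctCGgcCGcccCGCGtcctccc
The Vill window held 7 CG pairs and 56.3% G or C, the Vil1 window 5 pairs and 61.7%, and the Flii window 26 pairs and 70.0%. The median over all 32851 windows of the same length was 7 pairs, and 83.1% of windows had fewer CG pairs than that of Flii. Flii thus had the densest CG content of the 3, and Vill lay at the median of all genes.

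Short motifs were then searched in these windows. RefSeq windows were listed for 7 of the 8 genes, with 3 starts for Gsn. The motif known for MYRF, searched as CTGGTAC and CTGGCAC on both strands, occurred in the Vill window and in none of the other 8 windows of the family. It is shown in capitals within 27 bases of the plus strand, chr9:119052590-119052616.
Vill: tctctgcccaCTGGTACcgaagaagta
The match began 178 bases before the Vill start, and 7.10% of all 32851 windows held the motif. Binding at this place was not measured here, and a match of letters in a window of this length is a description.

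Other motifs were searched in the same way, on both strands. No window of the family held AACCNGTT (2.09% of all windows), GGAATG (14.7%), TGTTTAC (3.65%), TATAAA (13.6%), TTTATG (11.9%), GTTAAT (7.10%) or ACAATGG (3.66%). The CArG box, the element of serum response factor, occurred in the Vil1 window from 73 to 64 bases before its start and in 1.63% of all windows. GGGTGTGG occurred in windows of Avil, Capg and Gsn and in 3.56% of all windows, and CACTCAAG in the Capg window, where it overlaps GGGTGTGG by 1 base, and in 1.43% of all windows.

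Levels between the genes were compared per kb of exon. In control lung the order was Flii at 27.7 ± 0.391 CPM per kb, Gsn at 21.8 ± 1.38, Svil at 11.4 ± 0.277, Vill at 7.16 ± 0.381, Capg at 4.64 ± 0.344 and Avil at 0.369 ± 0.0695 (SD, n = 4). No neighbours in that part of the order overlapped between libraries, and Scin and Vil1 followed at levels that did overlap each other. In mutant lung the level of Vill was 11.5 ± 1.28 CPM per kb and that of Svil 11.3 ± 0.411, so Vill libraries, from 9.64 to 12.5, overlapped those of Svil, from 11 to 11.9. Vill made up 12.8% to 15.9% of the family's summed CPM per kb in mutant libraries and 9.33% to 10.3% in control libraries. That sum was 75.4 to 82.3 in mutant libraries and 71.9 to 74.4 in control libraries. It includes Vill, which was chosen for its rise, and the groups overlapped for each of the other members.

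Vil1, which encodes villin itself, was near the detection floor. It had 10, 6, 1 and 7 counts in mutant replicates 1 to 4 and 3, 4, 3 and 5 counts in control replicates 1 to 4. A floor of 3 counts corresponds to 0.0616 to 0.168 CPM in mutant and 0.158 to 0.169 CPM in control libraries and covers counting error only. The groups overlapped, and no fold change is given. Vil1 (ENSMUSG00000026175.12) lies on the plus strand of chromosome 1 from 74409376 to 74435559, and 49 of its exon bases lie opposite an exon of Usp37. Markers of gut epithelium, the tissue in which villin is abundant, were also low. Their summed level over 6 genes was 4.39 to 6.03 CPM in mutant and 5.03 to 5.98 CPM in control libraries. Cdx2 and Fabp2 were at 0 in all 8 libraries. Lgals4 was the highest, at 3.86 CPM in mutant and 3.92 CPM in control libraries, followed by Muc2 at 0.864 and 1.04 CPM.

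Avil encodes advillin, known in mouse from sensory neurons. It measured 1.66, 1.37, 1.42 and 0.957 CPM in mutant replicates 1 to 4, against 0.950, 1.41, 1.47 and 1.18 CPM in control replicates 1 to 4. The highest library was a mutant and the ranges overlapped. The log2 fold change was 0.13 (SE 0.229, edgeR adjusted p = 0.861) with a 95% interval from -0.35 to 0.61, the widest of the 6 tested genes. The 6 markers of sensory neurons and nerve summed to 11.6 to 17.4 CPM in mutant and 6.94 to 12.7 CPM in control libraries, 0 of their 4 tested genes passed in edgeR, with 3 at an unadjusted p below 0.05, and their part in the level of Avil was not tested. Avil (ENSMUSG00000025432.11) lies on chromosome 10 from 127000709 to 127020994 on the plus strand, and 165 of its exon bases lie opposite an exon of Tsfm on the other strand.

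Svil encodes supervillin, a large membrane-linked member that also binds myosin and is prominent in muscle. It measured 117.7, 119.3, 127.3 and 118.7 CPM in mutant replicates 1 to 4, against 124.3, 118.9, 120.1 and 124.9 CPM in control replicates 1 to 4. Mutant replicate 3 was the highest library, the other mutants lay near the low end of the controls, and the ranges overlapped. The log2 fold change was -0.02 (SE 0.0364, edgeR adjusted p = 0.892), with a 95% interval from -0.09 to 0.06. Svil (ENSMUSG00000024236.18) lies on chromosome 18 from 4920540 to 5119299, with 46 merged exons.

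Gsn encodes gelsolin, which severs filaments and caps their ends inside cells and is also secreted into plasma. It measured 73.0, 69.2, 78.6 and 72.7 CPM in mutant replicates 1 to 4, against 65.4, 74.6, 69.8 and 65.6 CPM in control replicates 1 to 4. Control replicates 2 and 3 lay within the mutant range, so the groups overlapped. The log2 fold change was 0.09 (SE 0.0498, edgeR adjusted p = 0.448) with a 95% interval from -0.02 to 0.19. In the 4 libraries with both kinds of sex-linked transcripts it was 0.21 (SE 0.0651, adjusted p = 0.259). Gsn (ENSMUSG00000026879.14) spans 35256380 to 35307892 on the plus strand of chromosome 2.

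Capg encodes a capping protein that covers filament ends without cutting and is abundant in macrophages. It measured 12.4, 12.9, 10.98 and 12.3 CPM in mutant replicates 1 to 4, against 10.5, 12.6, 11.97 and 11.8 CPM in control replicates 1 to 4. The lowest library was a control, the highest a mutant, and the ranges overlapped. The log2 fold change was 0.06 (SE 0.0830, edgeR adjusted p = 0.819) with a 95% interval from -0.12 to 0.23. The 6 macrophage markers summed to 84.5 to 89.2 CPM in mutant and 88.4 to 96.4 CPM in control libraries, with 1 of 6, Mrc1, called lower where 0.931% of all tested genes were, and their part in the level of Capg was not tested. Capg (ENSMUSG00000056737.14) lies on the plus strand of chromosome 6 from 72544391 to 72562983.

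Flii encodes the flightless protein, which joins leucine-rich repeats to gelsolin domains and also acts as a coactivator of nuclear receptors. It measured 133.3, 136.5, 144.0 and 147.0 CPM in mutant replicates 1 to 4, against 139.7, 137.0, 141.1 and 141.3 CPM in control replicates 1 to 4. The control libraries lay close together and inside the wider mutant range. The log2 fold change was 0.00 (SE 0.0370, edgeR adjusted p = 0.983) with a 95% interval from -0.08 to 0.08. Scin, which encodes the severing protein adseverin of secretory cells, had 2, 12, 3 and 2 counts in mutant and 7, 3, 1 and 4 counts in control replicates 1 to 4, and no fold change is given. Flii (ENSMUSG00000002812.4) spans 60714123 to 60727263 on the minus strand of chromosome 11, and Scin (ENSMUSG00000002565.16) spans 40059769 to 40134228 on the minus strand of chromosome 12.

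Of the 6 tested family genes, 1 was called, Vill, and it was chosen with that known. Over all tested genes 1.49% were called in either direction, 0.564% as higher and 0.931% as lower in mutant lung. The groups did not overlap for Vill and overlapped for the other 5, where 7.37% of all tested genes had groups that did not overlap, 3.31% higher and 4.06% lower in mutant lung. The median log2 fold change of the 6 genes was 0.07, beside 0.00 for all tested genes. Whether Vill differed from its relatives in response was not tested, since Vill was chosen for its difference.

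**Figure D2:**
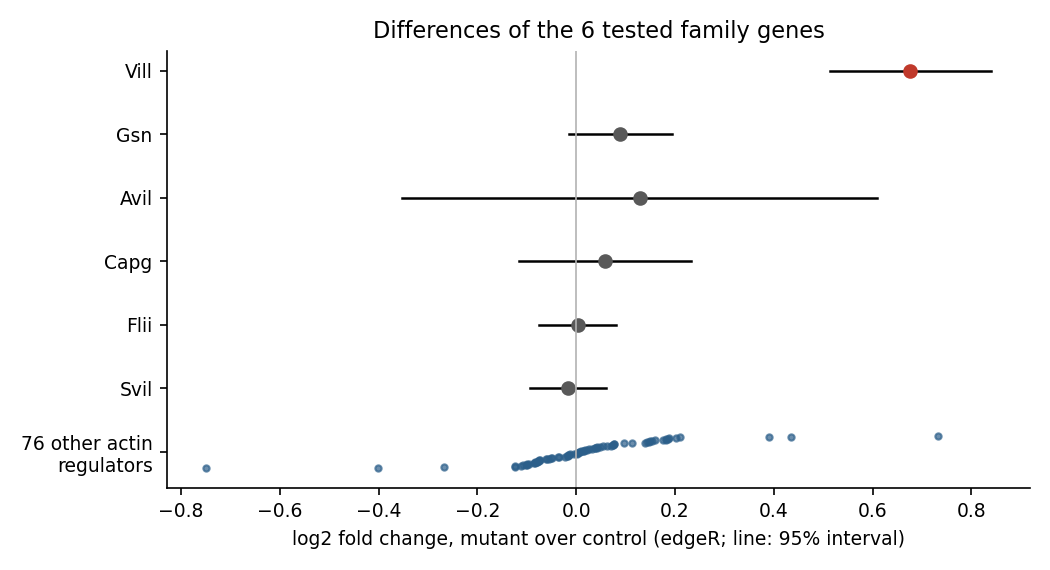
Log2 fold change, mutant over control, of the 6 tested family genes with 95% intervals, above the 76 tested genes of the actin regulator lists as single points without intervals. Vill lies at 0.68, the other 5 family genes lie between -0.02 and 0.13, and their intervals include 0.

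The other parts of the actin filament machinery were followed in 7 lists with 82 genes, of which 76 were tested. In edgeR 0 of the 76 passed, with 20 at an unadjusted p below 0.05 and 2191 of all 15788 genes at that p. DESeq2 called 2 of them, Tmsb10 and Acta2, and limma-voom called 1, Tmsb10. Their median log2 fold change was 0.01, with 42 genes above and 34 below 0, and the groups did not overlap for 6 higher and 5 lower genes, 14.5% of those tested, beside 7.37% of all tested genes. Only Acta1 and Ush1c had a log2 fold change of at least the size of Vill, and both were low. Acta1 measured 2.29 ± 1.90 CPM in mutant and 1.32 ± 0.0626 CPM in control libraries, a wide spread among mutants. Ush1c measured 0.735 ± 0.292 CPM in mutant and 1.27 ± 0.287 CPM in control libraries.

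None of the tested genes for filament disassembly, capping and monomer binding was called in edgeR, with 3, 3 and 2 of them at an unadjusted p below 0.05. The cofilin gene Cfl1, a filament-severing protein of most cells, measured 1265 ± 25.6 CPM in mutant and 1353 ± 37.9 CPM in control libraries (log2 fold change -0.10, SE 0.0295, edgeR adjusted p = 0.112). Cap1, which helps recycle actin monomers, had a log2 fold change of 0.01 (SE 0.0379). The 14 tested disassembly genes had a median of -0.001 and the 14 tested capping genes one of 0.08, where Add1, an adducin, had 0.07 and Capzb, a subunit of capping protein, 0.03. Of the 4 monomer-binding genes, profilin Pfn1 had 0.06 (SE 0.0708) and thymosin Tmsb4x -0.07 (SE 0.0299). Tmsb10, another thymosin, measured 438 ± 48.0 CPM in mutant and 578 ± 49.2 CPM in control libraries (log2 fold change -0.40, SE 0.0950, adjusted p = 0.105), and was chosen after its values were seen.

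In the nucleation, bundling, headpiece and actin lists 0 genes were called in edgeR, with 3, 5, 1 and 3 at an unadjusted p below 0.05. For the 21 nucleation and elongation genes the median log2 fold change was -0.02, and the Arp2/3 subunit Actr3 measured 286.8 ± 2.56 CPM in mutant and 289.3 ± 5.96 CPM in control libraries. Wasf2, an activator of that complex, had a log2 fold change of 0.02 (SE 0.0405). Among the 14 tested bundling and microvillus genes, with a median of 0.03, the cross-linker genes Actn4 and Fscn1 had 0.00 (SE 0.0318) and -0.04 (SE 0.0327). The headpiece relatives outside the family, Ablim1 and Ablim3, had -0.10 (SE 0.0648) and 0.18 (SE 0.254). Of the 6 actin genes 5 were above 0, with a median log2 fold change of 0.16, and the 2 most abundant, Actb and Actg1, differed by -0.11 (SE 0.0359, adjusted p = 0.158) for Actb and by 0.07 for Actg1 (SE 0.0367), whose adjusted p was 0.378. The smooth muscle actin genes Acta2 and Actg2, chosen after their values were seen, had 0.16 (adjusted p = 0.0558) and 0.15 (adjusted p = 0.101).

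The genes whose levels followed Vill most closely over the 8 libraries were Sox2, Cftr, Fmo1, Ppp2r2b and Fat4. They were picked among 13162 genes with a log2 CPM of 1 or more in the mean level that edgeR estimates over all libraries. Pearson correlations of log2 CPM with Vill were 0.986, 0.983, 0.977, 0.974 and 0.966, and they include the difference between the groups that Vill was chosen for. After the group means were removed they were 0.890, 0.831, 0.760, 0.712 and 0.588 over the same 8 libraries, which share depth and scaling with Vill. Sox2, a transcription factor gene of airway epithelium, measured 20.5, 17.1, 20.8 and 20.9 CPM in mutant replicates 1 to 4, against 13.3, 12.8, 15.02 and 13.53 CPM in control replicates 1 to 4. Mutant replicate 2 was the lowest mutant library for both Sox2 and Vill, and control replicate 3 the highest control. For Vill, mutant replicate 2 was at 42.5 CPM and the other mutants at 52.1 to 55.1 CPM. The Sox2 correlation of 0.890 leans on mutant replicate 2 and was not computed without that library. Cftr, a chloride channel of epithelium, measured 19.7 ± 0.832 CPM in mutant and 15.5 ± 0.810 CPM in control libraries. Fmo1 measured 2.67 ± 0.491 CPM in mutant and 1.11 ± 0.128 CPM in control libraries, so it passed the level limit only through the mutant libraries. These 5 were picked as the highest, so they give no scale for the family, whose correlations with Vill after the group means were 0.416 for Gsn, 0.198 for Flii, 0.100 for Avil, 0.057 for Svil and -0.437 for Capg.

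Summed markers of cell types that the lung could hold were set beside Vill, in the plot of Vill and marker levels. The 5 proximal airway genes summed to 45.9 to 52.8 CPM in mutant and 32.9 to 38.1 CPM in control libraries, with none at 0. Of the 5, 2 were called higher, Sox2 and Cldn10, where 0.564% of all tested genes were called higher. Both had the highest levels of that list and weigh most in its sum. Foxj1 went the other way, at 1.35 CPM in mutant and 1.58 CPM in control libraries (log2 fold change -0.24, SE 0.203). The 7 pan-epithelium genes summed to 929 to 963 CPM in mutant and 868 to 922 CPM in control libraries, with 0 called in edgeR and 4 at an unadjusted p below 0.05. The 8 mesothelium genes summed to 157 to 175 CPM in mutant and 212 to 223 CPM in control libraries, with 4 called lower, where 0.931% of all tested genes were called lower. In that list Msln went the other way, at 0.828 CPM in mutant and 0.723 CPM in control libraries (log2 fold change 0.19, SE 0.312). Nkain4 had a log2 fold change of -0.08 (SE 0.0486, edgeR adjusted p = 0.523). The 6 smooth muscle genes summed to 1070 to 1176 CPM in mutant and 983 to 1071 CPM in control libraries, with 0 called in edgeR and 4 at an unadjusted p below 0.05.

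Sums of the further lists overlapped between the groups, as the smooth muscle sum did. The 5 endothelium genes, all with a log2 fold change above 0, summed to 657 to 711 CPM in mutant and 612 to 677 CPM in control libraries. Of the 5, 1 was called higher, where 0.564% of all tested genes were. It was Emcn, just under the threshold (edgeR adjusted p = 0.0479). The 6 heart muscle genes summed to 87.9 to 142.5 CPM in mutant and 60.3 to 101 CPM in control libraries, with 0 of 5 tested called in edgeR, 1 at an unadjusted p below 0.05 and a median log2 fold change of 0.77. The 5 cartilage genes summed to 167 to 192 CPM in mutant and 190 to 206 CPM in control libraries, with 0 of 4 tested called in edgeR and 2 at an unadjusted p below 0.05. Stratified epithelium, tuft cell and skeletal muscle lists had 0 called in edgeR and 0 at an unadjusted p below 0.05. The skeletal muscle list, which holds Acta1, summed to 22.2 CPM in mutant replicate 4 and to 6.86, 10.2 and 7.42 CPM in mutant replicates 1 to 3.

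Relative to these sums the separation of Vill changed. Vill was 4.42% to 5.93% of the pan-epithelium sum in mutant and 3.31% to 3.72% in control libraries, and these did not overlap. Its CPM over the proximal airway sum was 0.868 to 1.2 in mutant and 0.839 to 0.964 in control libraries, and these overlapped. Over Sox2 alone it was 2.49 to 2.68 in mutant and 2.20 to 2.43 in control libraries, and these did not overlap. Sox2 is part of the proximal airway sum and was the gene picked as most like Vill over these same libraries. A narrower gap over Sox2 or that sum follows from this likeness, so these ratios are a description. The part of airway, mesothelial, muscle, endothelial or cartilage cells in the level of Vill was not tested.

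**Figure D3:**
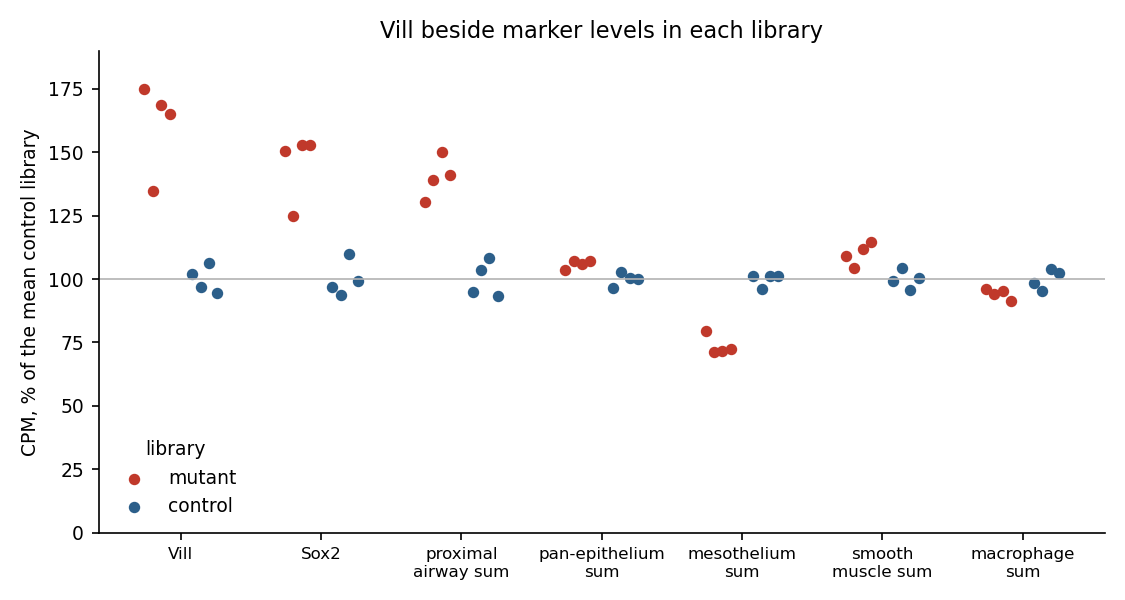
Level of Vill, of Sox2 and of 5 summed marker lists in each library as a percent of the mean control library, on an axis from 0, with mutant libraries left of control libraries. Vill, Sox2 and the proximal airway sum lie above all controls in the 4 mutants, the pan-epithelium sum lies slightly above, and the mesothelium sum lies below. The smooth muscle and macrophage sums overlap between the groups.

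The genes next to Vill were compared to see whether the region differed as a whole. Ctdspl, a phosphatase gene that ends 8779 bases before Vill on the same strand, measured 73.6 ± 1.30 CPM in mutant and 80.4 ± 2.01 CPM in control libraries (log2 fold change -0.13, SE 0.0378, edgeR adjusted p = 0.0935). The integrin gene Itga9, farther in that direction, had a log2 fold change of 0.01 (SE 0.0379). Dlec1, beyond Plcd1, was low, at 1.37 ± 0.244 CPM in mutant and 0.959 ± 0.179 CPM in control libraries (log2 fold change 0.50, SE 0.235, adjusted p = 0.35). Of 15 other tested genes in the window of 500 kb on each side, 1 was called, beside the 1.49% called over all genes, and 4 had an unadjusted p below 0.05. The called gene was Acaa1a, a peroxisomal thiolase, which was named after its values were seen. It rose to 63.6 ± 5.89 CPM in mutant libraries, against 49.4 ± 3.26 CPM in control libraries (log2 fold change 0.36, SE 0.0674, edgeR adjusted p = 0.0180).

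**Figure D4:**
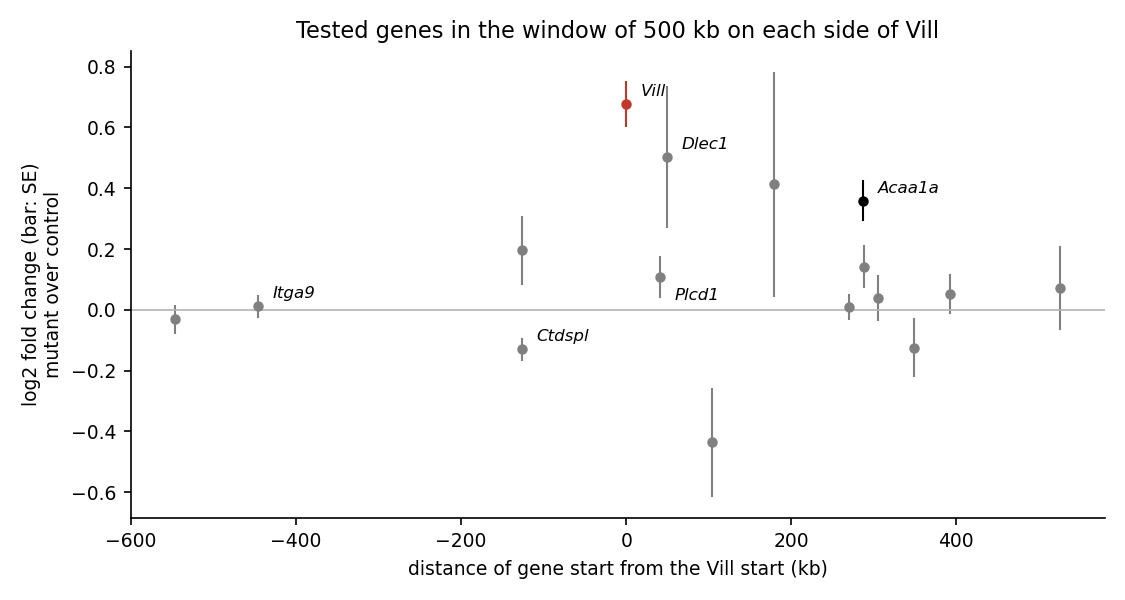
Log2 fold change, mutant over control, with SE bars, of the 16 tested genes in the window against the distance of each gene start from the Vill start in kb. Vill is at 0.68, its nearest neighbours Ctdspl and Plcd1 are at -0.13 and 0.11, and Acaa1a at 0.36 is the other called gene.

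Vill and Gsn, the member with the smallest p after Vill, were followed through the other settings. Without mutant replicate 2, its lowest mutant library, Vill was at 0.77, and without mutant replicate 1, its highest, at 0.63. Gsn reached its highest value, 0.21, in the 4 libraries with both kinds of sex-linked transcripts and its lowest, 0.06, without mutant replicate 3, and it was called in none of the settings.

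**Figure D5:**
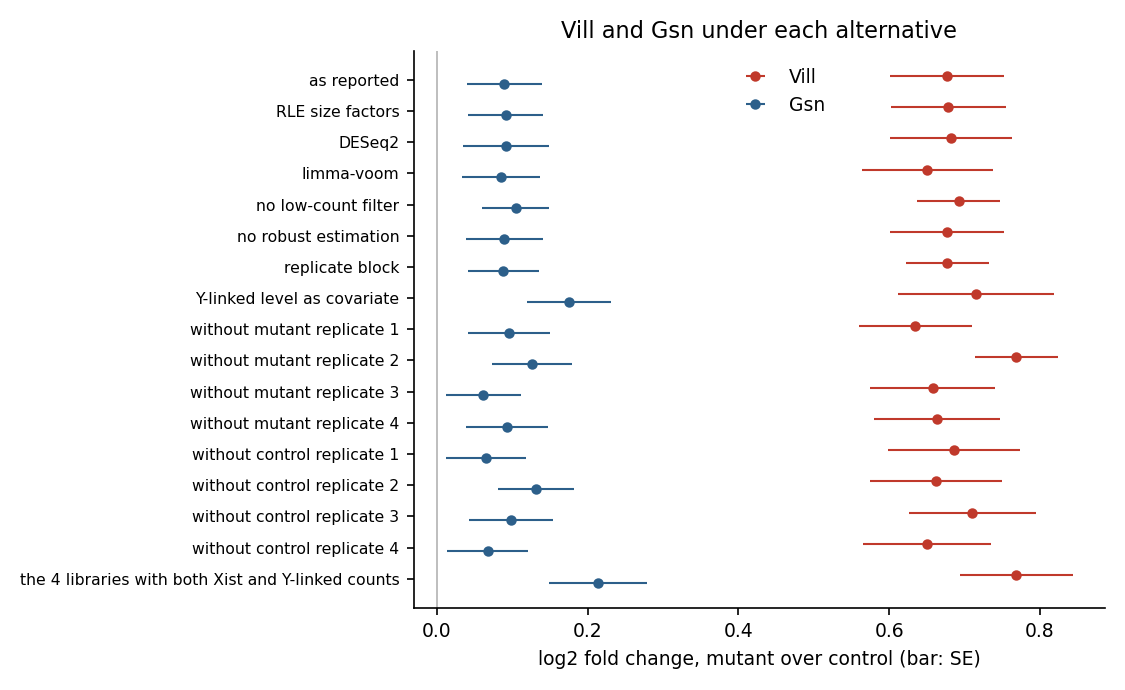
Log2 fold change, mutant over control, with SE bars, of Vill and Gsn under the reported fit and each of 16 alternatives. Vill lies between 0.63 and 0.77 and Gsn between 0.06 and 0.21.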

How the data were processed

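RNA of E13.5 lung was sequenced in 4 mutant and 4 cre control libraries; per the labels' protocols, a stranded Illumina mRNA kit was used. The authors deposited counts per gene that had not been normalized. Per the file headers they were made with featureCounts 1.6.4, paired, strand option 2, over exons of GENCODE vM25, with no option set to count multi-mapping or multi-overlapping reads; STAR and GRCm38 are named in the submitters' processing notes, which also list DESeq2. Exon length is the deposited column.

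Symbols were matched for 55141 of 55401 genes. All libraries were fitted in edgeR 4.0.16 (R 4.3.3) with its expression filter, TMM scaling and robust quasi-likelihood F tests, two-sided, adjusted by Benjamini-Hochberg over 15788 genes with a threshold of 0.05. Intervals of 95% use the moderated degrees of freedom. Correlations used log2 CPM with a prior count of 2. Replicates of a group differed by 2.92 to 8.95 times the sampling variance, so none was a duplicate. Alternatives used DESeq2 1.42.0, limma 3.58.1 and other settings. The steps were tested on simulated counts.

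The members and lists were chosen with earlier results of these data known. The genes named were the 8 members, Myrf, the 2 most abundant of each actin list and any called, the 2 nearest coding genes on each side of Vill and the 5 genes most like it. Which genes are coding was taken from an earlier GENCODE release than that of the counts. Acta1, Ush1c, Tmsb10, Acta2, Actg2 and Acaa1a were added after their values were seen, and marker genes come from the marker lists. Vil1 and Scin failed the filter. Promoter sequences came from RefSeq.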

Additional observations from a re-analysis of the deposited data

Results flagged for a closer look

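Of 60 groups of 4 libraries examined, 4 held a library set apart from the other 3, and chance flags about 1 in 20 groups. Svil was 127.3 CPM in mutant replicate 3, with the other mutants at 117.7 to 119.3 CPM. Sox2 was 17.05 CPM in mutant replicate 2, with the other mutants at 20.5 to 20.9 CPM. Pfn1 was 766.6 CPM in control replicate 4, with the other controls at 618.7 to 634.6 CPM. Tmsb4x was 535.6 CPM in mutant replicate 1, with the other mutants at 555.7 to 559.2 CPM.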

How the results depend on the processing

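Vill kept its sign under all 16 alternatives, with a log2 fold change from 0.63 to 0.77, as did Myrf, from -0.41 to -0.34. The other tested members were called under none. Vill was chosen for its difference, so its values are a description. Flii, near 0 as reported, was -0.001619 with limma-voom and -0.00482, -0.02003 and -0.006455 without mutant replicate 3, mutant replicate 4 and control replicate 2, and Svil was 0.0002942 without mutant replicate 1. When 1 library was left out Flii ranged from -0.02003 to 0.03026 and Svil from -0.03586 to 0.0002942, and none of these was called. The count of called genes, 236, was 380 with DESeq2, 791 with no low-count filter, 142 with no robust estimation, 97 with the Y-linked level as covariate and 87 in the 4 libraries where Xist and Y-linked counts occurred together, an alternative chosen after seeing the data. It was 96 to 479 when 1 library was left out: 118 without mutant replicate 2, 479 without mutant replicate 4, and 100, 121 and 96 without control replicates 1, 2 and 3. The actin regulators, 0 called as reported, had 2 called with DESeq2, 1 with limma-voom, 4 with no low-count filter, 1 with no robust estimation, 1 in those 4 libraries and 0 to 1 when 1 library was left out. Tmsb10 was among those called with DESeq2, limma-voom, no low-count filter, no robust estimation, a replicate block and in those 4 libraries. When 1 library was left out Tmsb10 was not called. The cause was not tested. The labels do not say that replicate numbers pair the samples, same-numbered libraries had correlations of 0.0125 to 0.181 after group means, for 2 of the 4 numbers the best match had the same number, and with a replicate block 541 genes and 3 actin regulators were called and Vill was at 0.68. Low counts limit Vil1 and Scin, which had 6 and 12 counts in mutant replicate 2, the deepest library, and at most 12 in any library.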
